A study of Gasterosteus aculeatus with 36 samples.

Results

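Genes that have been tied to the bony plates, spines, pelvic fins, teeth and pigment of threespine stickleback (*Gasterosteus aculeatus*) were followed through early development in both sexes. Of 8 symbols looked for, 6 were listed in the table of normalized read counts, which holds 24388 genes: *eda*, *edar*, *tbx4*, *bmp6*, *gdf6a* and *kitlga*. The symbols *pitx1* and *msx2a* had no row under those names in the tables used and were not analysed here. These 8 genes were looked for by symbol alone, not by gene ID, so a row under another name would have been missed. The genes were chosen by name, and all 6 passed the filter on low counts.

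The RNA came from 36 whole fish, each sequenced once, with 3 males and 3 females at each of 6 time points. These were the embryonic stages 17, 20 and 23 and the larval ages of 0, 4 and 8 days post hatching (dph). The study compared the sexes across early development to follow the genes that determine sex, and the labels give no treatment or genotype other than sex, so males were compared here with females and each time point with the one before it. The stickleback has an XX-XY system, in which males carry a single X. The study raised its fish in the laboratory from marine stocks, and the stock used for these libraries was not stated in the sources used here. Counted reads per fish ranged from 8637205 to 52089185 with a median of 23246848, the lowest being male replicate 3 at stage 17. The Y-linked gene *amhy* had reads in 18 of 18 males and 2 of 18 females. In the paper's own counts both of these females were 0 dph larvae. Each of 10 tissues looked for had at least 1 marker past the filter (31 of 37 markers in all). A gene can pass that filter through few of the groups, so this does not test the label "whole organism". In RNA from whole animals, fewer cells of a type and less RNA per cell cannot be told apart.

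Ectodysplasin, the product of *eda*, is a secreted ligand of the tumour necrosis factor family, and *edar* encodes its receptor. Binding leads through an adaptor and the IKK complex to NF-κB in the thickened epithelia of developing scales, teeth and other skin appendages. In stickleback, variants at *Eda* are known for the loss of lateral plates in freshwater populations. Tbx4 is a transcription factor of the pelvic fin, or hindlimb, field. *bmp6* and *gdf6a* encode ligands of the bone morphogenetic protein (BMP) family, known in freshwater stickleback for tooth number and for plate size. *kitlga* encodes a ligand of the Kit receptor, which melanocyte precursors need to migrate and survive, and its stickleback locus is known for the colour of gills and skin.

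All 6 genes differed between stages over the whole series, with adjusted p-values between 1.84e-15 for *bmp6* and 1.23e-04 for *kitlga* (edgeR quasi-likelihood test, Benjamini-Hochberg adjustment over all 22168 genes tested). Such differences were found for 96.8% of all genes tested. When hatched larvae were compared with embryos, *eda* and *edar* were higher, *bmp6* and *gdf6a* were lower, and *tbx4* and *kitlga* were not called. The 4 of 6 genes called stand beside 87.5% of all genes tested, 47.9% higher and 39.7% lower in larvae. The 6 genes had a median log2 fold change of 0.04, and all genes tested had a median of 0.14.

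By step, calls among the 6 genes were most frequent at the first, as were those among all genes tested. Relative to stage 17, 5 of 6 were called at stage 20 (4 higher and 1 lower). Of all genes tested 64.3% were called there, 34.3% higher and 30.1% lower. Relative to the time point before, 2 were called at stage 23 (1 higher and 1 lower, beside 58.3% of all genes, 30.2% higher and 28.1% lower), 2 on hatching (beside 58.4% of all genes) and 3 at 4 dph (beside 48.4%). At 8 dph relative to 4 dph 0 of the 6 were called by edgeR, with 1 unadjusted p under 0.05, that of *eda*, beside 17.9% of all genes (8.44% higher and 9.47% lower).

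**Figure D1:**
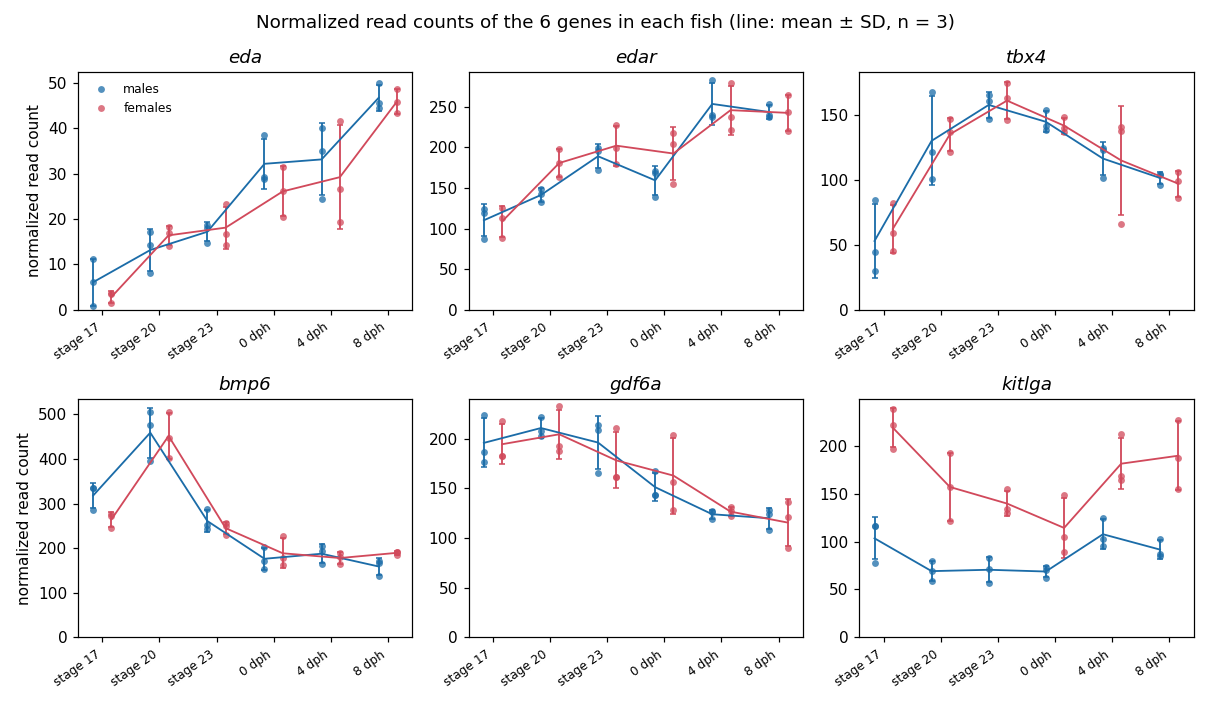
Normalized read counts (reads divided by a size factor for each fish) of the 6 genes in single fish, with males (blue) left of females (red) at each time point; points are fish, lines join the means of 3 fish and bars show the SD. The *eda* counts were highest at 8 dph, *tbx4* was highest at stage 23, *bmp6* at stage 20, and for *kitlga* all males lay below all females at each of the 6 time points.

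*eda* had the lowest read counts of the 6 genes, with 1 to 58 reads per fish. The lowest, median and highest of the 6 fish per stage, to 2 digits, were 0.93, 3.6 and 11 normalized read counts at stage 17, then 8.2, 16 and 18 for stage 20, and 14, 17 and 23 for stage 23. In larvae these values were 21, 29 and 38 on hatching (0 dph), then 19, 31 and 42 for 4 dph, and 43, 46 and 50 for 8 dph. Every fish at 8 dph was above every fish of the earlier time points, and the means over both sexes increased in the order of age. The 8 dph mean of 46.2 ± 2.5 was 10.3 times the stage 17 mean of 4.48 ± 3.82 (SD, n = 6 each). At stage 17 the level rested on 1 to 6 reads per fish, so that counting error alone is large there.

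The *eda* level was 3.81 times as high at stage 20 as at stage 17, its largest step (log2 fold change 1.93, SE 0.346, adjusted p = 1.52e-05). It rose again at 0 dph relative to stage 23, with a log2 fold change of 0.73 (SE 0.247, adjusted p = 0.0126). That call was lost with counts scaled by library totals alone (0.58, adjusted p = 0.0510), without replicate number 2 or 3 (0.117 and 0.0722), in females alone (0.46, adjusted p = 0.271) and in males alone (0.92, adjusted p = 0.0664). The differences of stage 23 from stage 20 (0.24, adjusted p = 0.457) and of 4 dph from 0 dph (0.03, adjusted p = 0.997) were not called. The mean at 8 dph exceeded that at 4 dph by 15.1 normalized read counts, more than the larger SD of 9.04, but the test across all genes did not call it (log2 fold change 0.57, SE 0.244, adjusted p = 0.108). Without female replicate 1 at 4 dph, which had the highest *eda* count of that age, the adjusted p became 0.0468. Over all larvae against all embryos the log2 fold change was 1.74 (SE 0.163, adjusted p = 2.14e-11).

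The receptor gene *edar* covered a narrower range than its ligand. In the 6 fish per stage its lowest, median and highest normalized read counts were 87.8, 116 and 125 at stage 17, then 133, 156 and 198 for stage 20, and 172, 197 and 228 for stage 23. The 0 dph larvae had 139, 170 and 218, the 4 dph larvae 221, 239 and 283, and the 8 dph larvae 220, 242 and 264. The stage 17 fish lay below all others, and the 4 dph mean of 249 ± 25.5 was 2.28 times the stage 17 mean of 109 ± 17 (SD, n = 6 each). In the order of the means, 8 dph did not differ from 4 dph beyond the larger SD, nor did 0 dph from stage 23 or from stage 20.

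*edar* rose at stage 20 relative to stage 17 by 0.55 on the log2 scale (SE 0.117, adjusted p = 1.47e-04) and at 4 dph relative to 0 dph by 0.44 (SE 0.111, adjusted p = 0.00165). The call at stage 20 was lost in males alone (0.34, adjusted p = 0.11). That at 4 dph was lost in females alone (0.29, adjusted p = 0.192). Each of these calls was kept in the other sex alone. A smaller rise at stage 23 relative to stage 20 was close to the threshold (0.26, SE 0.111, adjusted p = 0.0447). It was lost without any 1 of 8 fish of stages 20 and 23, namely female replicates 1 and 2 and male replicates 2 and 3 of stage 20, and female replicates 2 and 3 and male replicates 1 and 3 of stage 23, with adjusted p-values of 0.0525 to 0.118. At 0 dph the level was not called different from stage 23 (-0.15, adjusted p = 0.247), although with library totals alone it was lower (-0.30, adjusted p = 0.0268). Larvae had 1.40 times the level of embryos (log2 fold change 0.48, SE 0.0650, adjusted p = 4.34e-08).

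Across the 12 groups of stage and sex, the mean log2 CPM (reads scaled to the size of each library) of *eda* and *edar* had a Pearson correlation of 0.89. This is a description over groups that share the same 36 libraries and the same order of ages. The genes whose pattern was most like that of *eda* were *mybphb*, *esyt2b* and *map4k2* (r = 0.990, 0.990 and 0.988), and for *edar* they were *adgra2*, *tox2* and *cdk19* (r = 0.986, 0.982 and 0.982). Here and for the genes below, only tested genes with a symbol of their own, not a LOC identifier, were ranked.

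Of 18 other genes listed for ectodysplasin signalling, 12 were tested. In larvae against embryos 5 were higher, 5 were lower and 2 were not called, near the 47.9% higher and 39.7% lower of all genes tested. Their median log2 fold change was -0.01, beside 0.14 for all genes. The largest rise was that of *wnt10a*, a Wnt ligand needed for teeth and other skin appendages, with a median of 221 normalized read counts in larvae and 93.5 in embryos (log2 fold change 1.87, SE 0.0929, adjusted p = 2.90e-18). *ikbkb*, a kinase of the IKK complex, had medians of 397 in larvae and 201 in embryos (0.76, SE 0.0603, adjusted p = 4.23e-13). The largest falls were those of *map3k7*, the kinase TAK1 upstream of IKK (-0.95, SE 0.0339, adjusted p = 5.38e-22), and *tab2*, which encodes a partner of that kinase (-0.55, SE 0.0470, adjusted p = 2.27e-12).

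*tbx4* had its lowest mean at stage 17 and its highest at stage 23. Its lowest, median and highest normalized read counts in 6 fish were 29.9, 52.5 and 84.9 at stage 17, then 101, 130 and 168 for stage 20, and 146, 162 and 175 for stage 23. The 0 dph larvae had 137, 141 and 154, the 4 dph larvae 66.6, 124 and 141, and the 8 dph larvae 86.3, 102 and 106. The stage 17 fish did not overlap with those of stages 20 and 23 or of 0 and 8 dph, and 1 female at 4 dph, with 66.6, lay within the stage 17 range. The stage 23 mean of 159 ± 11 was 2.76 times the stage 17 mean of 57.8 ± 22.1 (SD, n = 6 each).

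The rise of *tbx4* at stage 20 relative to stage 17 was 2.45-fold (log2 fold change 1.29, SE 0.183, adjusted p = 3.27e-07). None of its 4 later steps was called, with log2 fold changes relative to the time point before of 0.24, -0.14, -0.38 and -0.24 in order of age from stage 23 onwards (adjusted p = 0.226, 0.469, 0.0647 and 0.364). The 4 dph step was past the threshold without female replicate 2 or 3 at 4 dph (adjusted p = 0.0413 and 0.0397) or without male replicate 1 or 3 at stage 17 (0.0465 and 0.0421). Larvae and embryos as a whole were not called different (0.11, SE 0.0998, adjusted p = 0.280). The genes with the pattern most like *tbx4* were *bhlha9*, *cdc42ep5* and *zgc:110045* (r = 0.990, 0.985 and 0.983 over the 12 groups).

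Among 31 other genes listed for the patterning of paired fins and spines, 26 were tested. RNA from whole fish does not show in which tissue these genes or *tbx4* changed. At stage 20 relative to stage 17, where *tbx4* rose, 15 of the 26 were higher and 6 were lower, against 34.3% higher and 30.1% lower of all genes tested. At 0 dph relative to stage 23, 16 were lower and 0 were higher, against 24.7% and 33.7% of all genes. In larvae against embryos 8 were higher, 14 were lower and 4 were not called, beside 47.9% higher and 39.7% lower of all genes, and the median log2 fold change was -0.18, beside 0.14. The largest fall was that of *sall4*, a zinc finger gene of early limb and fin buds, with a median of 112 normalized read counts in larvae and 1270 in embryos (log2 fold change -3.94, SE 0.0669, adjusted p = 2.63e-29). *fgf8a*, a growth factor gene of the apical ridge of the fin bud, had medians of 16.8 in larvae and 89.9 in embryos (-2.34, SE 0.0972, adjusted p = 2.80e-20). *hoxa13b*, a gene of the distal fin, and *fgf16*, another ridge growth factor gene, had the largest rises on the log2 scale (1.75 and 1.32). Their medians differed little, with 96.2 in larvae and 97.3 in embryos for *hoxa13b* and 53.8 in larvae and 46.9 in embryos for *fgf16*, and both had embryos with no read.

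**Figure D2:**
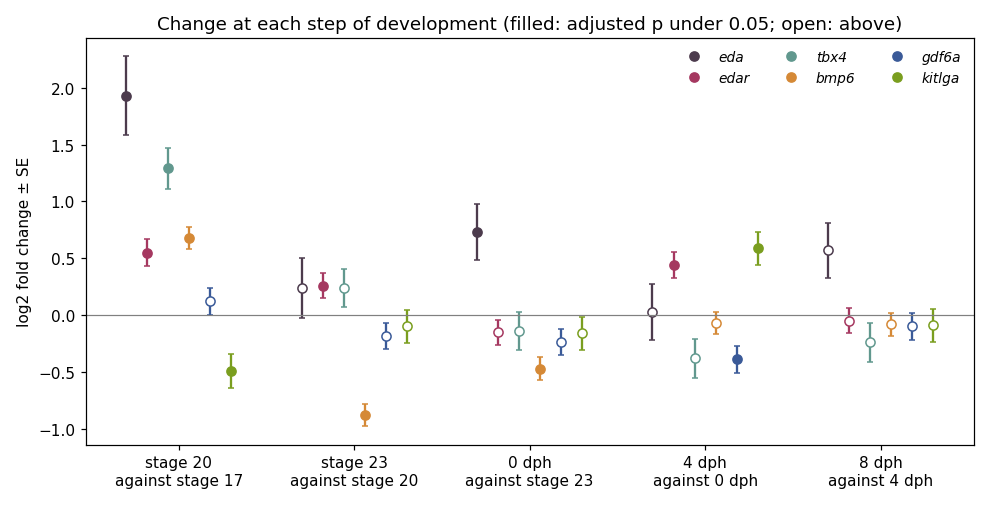
Log2 fold change of each of the 6 genes between a time point and the one before it, averaged over both sexes, with bars of 1 SE; filled circles have an adjusted p under 0.05 in the edgeR test across all genes and open circles do not. Of the 6 genes, 5 were called at stage 20 against stage 17, beside 64.3% of all genes tested. At 8 dph against 4 dph 0 were called, beside 17.9% of all genes.

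*bmp6* had its highest counts at stage 20 and fell at the following 2 steps. In 6 fish per stage the lowest, median and highest normalized read counts were 244, 280 and 335 at stage 17, then 396, 462 and 505 for stage 20, and 229, 250 and 288 for stage 23. The 0 dph larvae had 153, 174 and 226, the 4 dph larvae 164, 184 and 205, and the 8 dph larvae 138, 178 and 192. All stage 20 fish were above all other fish, and all larvae were below all embryos. The mean of 456 ± 48.5 at stage 20 was 2.62 times that of 174 ± 21 at 8 dph (SD, n = 6 each), and the 3 larval means differed by less than the larger SD.

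*bmp6* rose 1.60-fold at stage 20 relative to stage 17 (log2 fold change 0.68, SE 0.0975, adjusted p = 4.65e-07). It then fell by 0.88 on the log2 scale at stage 23 relative to stage 20 (SE 0.0963, adjusted p = 4.38e-09) and by 0.47 at 0 dph relative to stage 23 (SE 0.0974, adjusted p = 1.39e-04). The later steps, of -0.07 to 4 dph and -0.08 to 8 dph, were not called (adjusted p = 0.591 and 0.637). Larvae had 0.535 times the level of embryos (log2 fold change -0.90, SE 0.0571, adjusted p = 1.51e-15). These calls kept their direction and their side of the threshold under every alternative run. The annotation used by the study marks the protein model of this gene as of low quality.

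The other BMP ligand gene, *gdf6a*, was lower in larvae than in embryos. Its lowest, median and highest normalized read counts in 6 fish were 177, 185 and 224 at stage 17, then 188, 206 and 233 for stage 20, and 162, 188 and 214 for stage 23. The 0 dph larvae had 128, 150 and 204, the 4 dph larvae 119, 126 and 131, and the 8 dph larvae 89.9, 123 and 136. Every fish at 4 and 8 dph lay below every embryo, while the 0 dph fish overlapped with the embryos. The mean of 208 ± 17 at stage 20 was 1.76 times that of 118 ± 16.6 at 8 dph (SD, n = 6 each), the narrowest range among the 5 genes with no called sex difference.

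A single step of *gdf6a* was called, 4 dph against 0 dph, with a log2 fold change of -0.39 (SE 0.117, adjusted p = 0.00637). It was lost without replicate number 2 or 3 (adjusted p = 0.0628 and 0.0752), in females alone (0.104) and in males alone (0.0900). The difference of 0 dph from stage 23 was not called (-0.24, SE 0.114, adjusted p = 0.0661), and was past the threshold with library totals alone (-0.39, adjusted p = 0.00638) or without female replicate 2 or male replicate 1 at 0 dph or male replicate 3 at stage 23 (adjusted p = 0.0118, 0.0488 and 0.0311). Larvae had 0.652 times the level of embryos (log2 fold change -0.62, SE 0.0672, adjusted p = 5.92e-10). The patterns of *gdf6a* and *bmp6* over the 12 groups had a Pearson correlation of 0.86, and those of *gdf6a* and *eda* one of -0.75. Most like *gdf6a* were *sinhcafl*, *cct5* and *nfe2l3* (r = 0.992, 0.987 and 0.987), and most like *bmp6* were *hyal2a*, *ago1* and *fzd1* (r = 0.985, 0.984 and 0.984).

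In the remaining BMP pathway, the lists of ligands, receptors and targets had negative medians in larvae against embryos. Of 8 tested ligand genes 2 were higher and 5 were lower (median log2 fold change -0.48), of 10 receptor and Smad genes 0 were higher and 8 were lower (-0.67), and of 7 target genes 1 was higher and 5 were lower (-0.59), beside 47.9% higher, 39.7% lower and a median of 0.14 for all genes tested. The antagonists, which bind BMP ligands outside the cell or otherwise limit their action, were divided, with 5 of 10 higher and 4 lower (median 0.00).

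Among the ligands, *gdf6b*, the paralog of *gdf6a*, had medians of 98.2 normalized read counts in larvae and 238 in embryos (log2 fold change -1.18, SE 0.0709, adjusted p = 3.94e-16). *bmp10*, known for its role in the heart, had 22.8 in larvae and 57.0 in embryos (-1.35, SE 0.0897, adjusted p = 5.25e-15), while *bmp2b* and *bmp8a* were slightly higher in larvae (0.21 each, adjusted p = 0.0194 and 0.0294). Both genes for type I receptors of the BMPR1B kind were lower, *bmpr1ba* with medians of 583 in larvae and 1550 in embryos (-1.39, SE 0.0438) and *bmpr1bb* with 281 in larvae and 500 in embryos (-1.08, SE 0.0499). Of the target genes, which respond to Smad signalling, *msx1a* and *id3* were lower in larvae (-0.72 and -0.65) and *id4* was higher (0.48).

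Within the BMP pathway, antagonist genes had the largest called changes in both directions. *grem2a*, a gremlin gene, had medians of 339 normalized read counts in larvae and 7.66 in embryos (log2 fold change 4.67, SE 0.146, adjusted p = 1.87e-23). *grem1a* rose as well, at low counts of 8.57 in larvae and 0 in embryos (3.38, SE 0.401). *szl*, the gene of sizzled, which acts in the early dorsoventral axis of fish and frogs, had a median of 0 and a highest count of 2.71 in larvae, and a median of 4.47 and a highest count of 317 in embryos (-5.07, SE 0.455). Follistatin, encoded by *fsta*, had medians of 344 in larvae and 790 in embryos (-1.27, SE 0.0653).

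**Figure D3:**
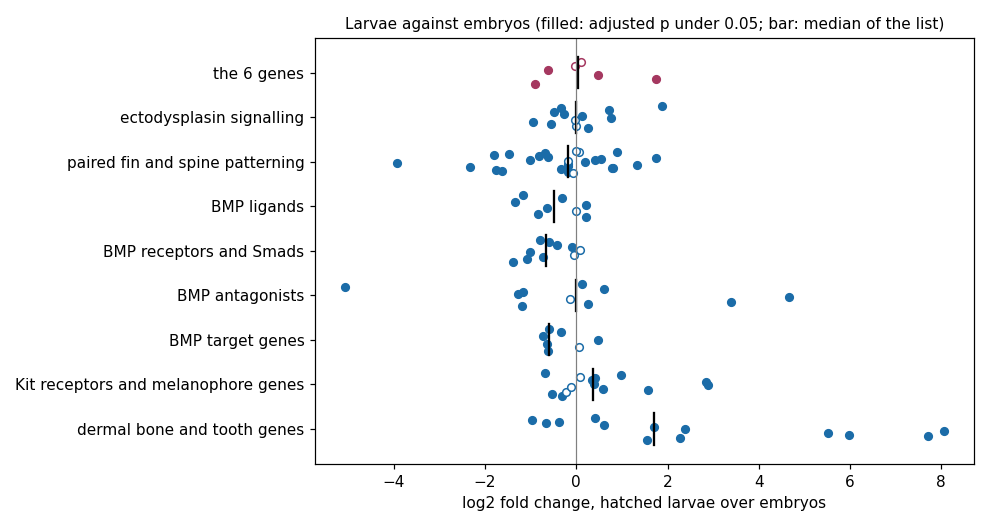
Log2 fold changes of hatched larvae over embryos for the 6 genes and for the tested genes of 8 related lists; each circle is a gene, filled where the adjusted p was under 0.05, and the vertical bars mark list medians. The medians ran from -0.67 for BMP receptors and Smads to 1.71 for dermal bone and tooth genes.

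Plates and spines are bone, but RNA from whole fish does not show which bones or teeth it came from. Of 13 tested genes listed for dermal bone and teeth, 10 were higher and 3 were lower in larvae, beside 47.9% and 39.7% of all genes tested. Their median log2 fold change was 1.71, beside 0.14 for all genes. *spp1*, the gene of the bone matrix protein osteopontin, had medians of 1970 normalized read counts in larvae and 3.36 in embryos (8.05, SE 0.132, adjusted p = 1.83e-29), and the collagen gene *col10a1a* had 39500 in larvae and 41.1 in embryos (7.70, SE 0.212, adjusted p = 8.73e-25). The homeobox genes *dlx4b* and *dlx2a*, expressed in jaw and tooth precursors, were lower in larvae (-0.98 and -0.66). The summed counts of 4 osteoblast markers, *col10a1a* among them, ranged over 96.0 to 166 at stage 17, 120 to 164 in stage 20 fish and 1520 to 2070 in stage 23 fish, and over 4100 to 6090, 38500 to 46000 and 38300 to 53000 in larvae of 0, 4 and 8 dph. In larvae most of this sum was *col10a1a*, with a mean of 30300 normalized read counts. The other 2 of these markers that passed the filter, *sp7* and *runx2b*, were 2.91 and 4.87 times as high in larvae as in embryos. The share of the osteoblast markers in the changes of *eda*, *edar*, *bmp6* and *gdf6a* was not tested.

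*kitlga* was the one gene of the 6 that differed between males and females. At stage 17 the males had 78.0, 116 and 116 normalized read counts and the females 197, 222 and 238. At stage 20 the males had 58.9, 69.0 and 79.2 and the females 121, 157 and 193. At stage 23 the males had 56.8, 71.5 and 83.1 and the females 130, 134 and 155. Thus no embryo of one sex reached the range of the other at its stage.

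The same order was found after hatching. At 0 dph the males had 62.1, 70.3 and 73.5 normalized read counts and the females 88.6, 105 and 149. At 4 dph the males had 94.8, 103 and 125 and the females 164, 168 and 212. At 8 dph the males had 84.6, 87.0 and 103 and the females 155, 187 and 227. The sexes did not overlap at 6 of 6 time points, where in order of age 12.3%, 9.93%, 13.8%, 11.9%, 12.6% and 15.9% of all genes tested did not overlap, and the smallest gap lay between the highest male and the lowest female at 0 dph.

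Averaged over the stages, males had 0.508 times the *kitlga* level of females (log2 fold change -0.98, 95% confidence interval -1.15 to -0.81, adjusted p = 3.84e-11). This was 1 of 6 genes called, beside 5.86% of all genes tested, 2.08% higher and 3.77% lower in males. At single time points the log2 fold changes of males over females were -1.10, -1.19 and -1.0 in embryos of stages 17, 20 and 23 (adjusted p = 3.24e-04, 1.31e-04 and 7.98e-04) and -0.74, -0.77 and -1.06 in larvae of 0, 4 and 8 dph (adjusted p = 0.0271, 0.0159 and 4.21e-04), with SEs of 0.203 to 0.211. All were called, where in the same order 2.65%, 2.95%, 3.17%, 3.01%, 3.04% and 3.14% of all genes were called lower in males. The size of the difference was not shown to change with stage (interaction, adjusted p = 1, with 0.0451% of all genes called).

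The calls at 0 and 4 dph rested on few fish. At 0 dph the call was lost without female replicate 1 (adjusted p = 0.356) or any of the 3 males (0.0746, 0.0560 and 0.163 without replicates 1, 2 and 3). At 4 dph it was lost without female replicate 1 (0.142) or male replicate 1 or 2 (0.112 and 0.0930). At 0 dph the males and females that share a replicate number deviated together from their group means (correlations across genes, not of *kitlga* alone, of 0.47, 0.26 and 0.23). With a replicate block, which paired them at every time point, the 0 dph call was lost as well (-0.71, adjusted p = 0.131). The 4 dph call was also lost with the block (-0.77, adjusted p = 0.0717). Without all fish of replicate number 2, the call was lost at each of the 6 time points (adjusted p = 0.0600 to 0.164). It was also lost at 0 and 4 dph without replicate number 1 (0.733 and 0.657) and at 0 dph without number 3 (0.0916). The difference averaged over the stages was called without any 1 of the 36 fish and with the block.

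In the gene table of the assembly fGasAcu3.hap1.1, which is not the assembly the reads were aligned to, *kitlga* lies on X, while *eda* lies on chromosome 4, *edar* on 16, *tbx4* on 1, *bmp6* on 21 and *gdf6a* on 20. Its difference between the sexes was close to that of most X-linked genes. Of 819 tested X-linked genes 690, or 84.2%, were called lower in males averaged over the stages. At single time points, in order of age, 57.0%, 66.3%, 71.3%, 68.9%, 69.8% and 69.1% of X-linked genes were called lower in males. All 819 had a median log2 fold change of -0.96 and quartiles of -1.02 and -0.84. Of 18064 tested autosomal genes 29, or 0.161%, were called lower in males, and all 18064 had a median of 0.01. Of the 20 nearest tested genes, 10 on each side of *kitlga*, 18 were called lower in males and 0 higher, with a median of -0.97. The genes next to it, *tmtc3* and *dusp6*, differed by -0.99 and -0.92.

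**Figure D4:**
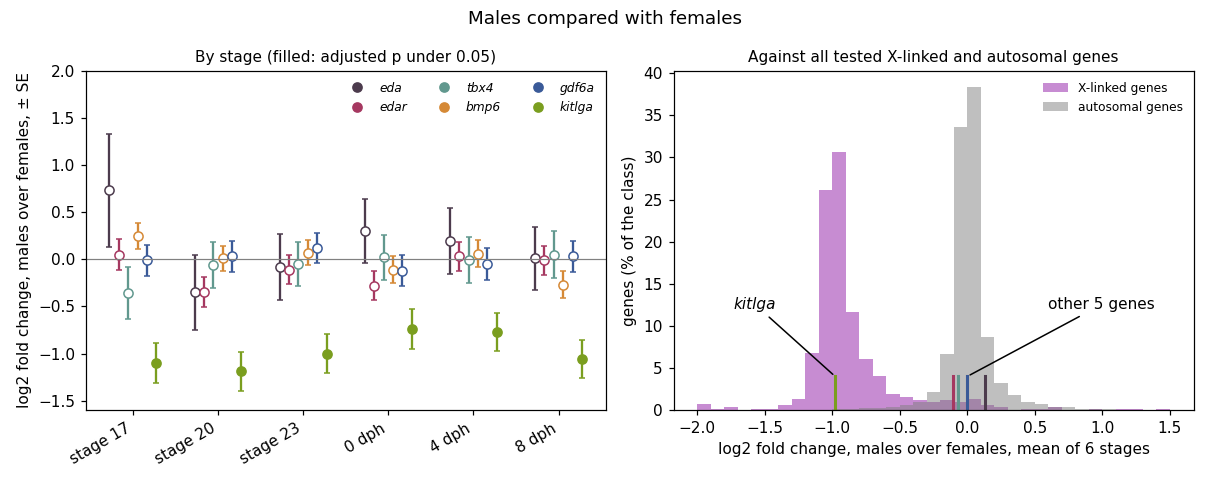
Left, log2 fold change of males over females at each time point for the 6 genes, with bars of 1 SE and filled circles where the adjusted p was under 0.05. Right, the distribution of the same difference averaged over the stages for tested X-linked (purple) and autosomal (grey) genes, as a percentage of each class with values beyond the axis placed in the outermost bins, and the 6 genes as short lines. *kitlga*, at -0.98, lies in the bulk of the X-linked genes and the other 5 genes lie between -0.11 and 0.13.

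The other 5 genes showed no called difference between males and females. Their averaged log2 fold changes were 0.13 for *eda* (95% confidence interval -0.20 to 0.47), -0.11 for *edar* (-0.24 to 0.02), -0.07 for *tbx4* (-0.27 to 0.13), 0.00 for *bmp6* (-0.12 to 0.12) and 0.00 for *gdf6a* (-0.14 to 0.14). In 30 comparisons at single time points 0 were called and 1 had an unadjusted p under 0.05, that of *edar* at stage 20 (-0.35, adjusted p = 0.469). Over all genes tested, 4.42%, 4.63%, 4.92%, 4.73%, 4.73% and 4.83% were called at the 6 time points in order. The sexes did not overlap in 3 of the 30 comparisons, beside 9.93% to 15.9% of all genes tested at a time point, so this share was near the background. The *edar* counts of males at stage 20 were 133, 142 and 149 and those of females 163, 181 and 198. For *bmp6*, males had 285, 334 and 335 at stage 17 and females 244, 273 and 276, whereas at 8 dph males had 138, 167 and 171 and females 185, 191 and 192. Neither *bmp6* difference was called (0.25 and -0.27, adjusted p = 0.667 and 0.720).

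Within each sex the stage pattern of *kitlga* was flatter than that of *eda*. Male means were 103 ± 21.9, 69.1 ± 10.2, 70.5 ± 13.2, 68.6 ± 5.86, 107 ± 15.5 and 91.5 ± 10 from stage 17 to 8 dph, and female means 219 ± 21, 157 ± 35.8, 140 ± 13.2, 114 ± 31.1, 182 ± 26.7 and 190 ± 36 (SD, n = 3 each). The highest mean was 1.57 times the lowest in males and 1.92 times in females, and both sexes had their lowest mean at 0 dph. That mean was within the larger SD of the next lowest in both sexes. The differences were 0.436 in males (SD 10.2) and 25.6 in females (SD 31.1). Averaged over the sexes, *kitlga* fell at stage 20 relative to stage 17 (log2 fold change -0.49, SE 0.147, adjusted p = 0.00449) and rose at 4 dph relative to 0 dph (0.59, SE 0.145, adjusted p = 0.00137). The call at stage 20 was lost without replicate number 1 (-0.38, adjusted p = 0.11), in females alone (0.0810) and in males alone (0.0523), and that at 4 dph in males alone (0.0600). Larvae and embryos were not called different (-0.03, SE 0.0839, adjusted p = 0.708).

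Most like *kitlga* over the 12 groups were *map1lc3b*, *rassf10a* and *kbtbd4* (r = 0.964, 0.960 and 0.949). These groups include both sexes, so the difference between males and females is part of the pattern compared. Of 18 genes listed for Kit receptors and melanophores, the black pigment cells, 14 were tested. At stage 20 relative to stage 17, the step at which *kitlga* was called lower, 12 of them were higher and 0 lower (median log2 fold change 2.11), and at 4 dph relative to 0 dph, the step at which it was called higher, 1 was higher and 11 were lower (median -0.85). Those shares stand beside 34.3% higher and 30.1% lower of all genes at the first of these steps, and 24.0% and 24.4% at the other. At the remaining steps *kitlga* was not called. Relative to the time point before, list genes were 7 higher and 3 lower at stage 23, 7 and 2 at 0 dph, and 0 and 1 at 8 dph. Of all genes, 30.2% and 28.1%, 33.7% and 24.7%, and 8.44% and 9.47% were called higher and lower at those steps.

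In larvae against embryos 8 of the 14 genes were higher and 3 were lower, beside 47.9% and 39.7% of all genes tested. *tyrp1b*, which encodes an enzyme of melanin synthesis, had medians of 1390 normalized read counts in larvae and 373 in embryos (log2 fold change 2.89, SE 0.127), and *pmelb*, a gene of the melanosome matrix, 1400 in larvae and 1030 in embryos (2.84, SE 0.0710). The *pmelb* counts of single embryos ran from 2.28 to 1680, against 1060 to 2760 in larvae, so its medians lie closer together than its fold change. *kitb*, a Kit receptor gene, had medians of 445 in larvae and 558 in embryos (-0.53, SE 0.0965, adjusted p = 8.60e-06), and *sox10*, a neural crest transcription factor gene, 562 in larvae and 862 in embryos (-0.68, SE 0.0706). The 3 neural crest markers, *sox10* among them, had summed counts of 2220 to 2510 at stage 17 and 2250 to 2750 at stage 20. At stage 23 the sum was 2940 to 3530. Larvae had 1810 to 2090 at 0 dph, 1680 to 2260 at 4 dph and 1770 to 2240 at 8 dph. The part of these markers in the *kitlga* levels was not tested. Of the tested genes on all 8 lists, *smad6b*, an inhibitory Smad gene, was called between the sexes averaged over the stages. It was lower in males (-0.91, SE 0.0636, adjusted p = 2.62e-13) and also lies on X in that gene table. In that comparison 3.77% of all genes tested and 84.2% of X-linked genes were called lower in males.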

How the data were processed

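Whole embryos and larvae were sequenced as polyA RNA with a stranded kit. Per the labels and methods, the authors trimmed reads with Trimmomatic 0.39, aligned them to GAculeatus_UGA_version5 with HISAT-3N, used SAMtools 1.17, and deposited read counts per gene made with HTSeq 2.0.2. The second deposited table is a normalized signal, the counts divided by 1 DESeq2 1.44.0 size factor per fish (checked on the table). Columns were matched to samples by library name. Replicate fish were separate, and nothing states their families, so p-values measure the spread between these fish.

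Counts were tested with edgeR 4.0.16 in R 4.3.3 (TMM, filterByExpr, 1 factor of stage and sex over 36 fish), which kept 22168 of 25258 genes; genes with a Benjamini-Hochberg adjusted p under 0.05 were called. The SE was the log2 fold change divided by the root of F. The fit was checked on simulated counts. Alternatives were DESeq2 1.42.0 (at least 10 reads), other scalings, no filter, fewer fish and a replicate block. At 0 dph alone, the deviations from the group means of males and females with the same replicate number correlated across genes over 0.1 in all 3 pairs. The replicate block still paired them at every time point when the sexes were compared. For comparisons of stages it was a term for replicate number shared by all time points.

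The genes and lists were chosen with earlier results of these data known. In each list, the 2 called genes with the largest rise and fall in larvae were named. For each of the 6 genes, the 3 with the highest correlation of group means of log2 CPM were named. Genes with only a LOC identifier were left out of that ranking. Chromosomes came from the gene table of fGasAcu3.hap1.1, matched for 20859 genes; 5 list genes were found through gene IDs. No sequence was used.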

Additional observations from a re-analysis of the deposited data

How the results depend on the processing

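For the 6 genes, 48 fold changes were recomputed under the alternatives, giving 462 values, of which 0 reversed a called direction, 33 lost a call and 3 gained one. DESeq2 and DESeq2's size factors changed no call. For males alone, 3 genes were called at stage 20 against stage 17 in place of 5. At stage 23 against stage 20, 1 gene in place of 2 was called without a filter on low counts, in females alone and in males alone, and 1 without each replicate number in turn. At 0 dph against stage 23 and at 4 dph against 0 dph, 1 gene was called in females alone and in males alone, in place of 2 and 3. Without replicate numbers 2 or 3, 2 genes were called at the step to 4 dph, and at the step to 0 dph without replicate numbers 1 to 3 in turn the count was 1 to 2. The cause of these changes was not tested, and each of these fits used fewer fish except that without a filter.

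Males and females of the same replicate number deviated together at 0 dph, where all 3 correlations were over 0.1, and at no other time point were all 3 (range -0.11 to 0.47, over 0.1 in 7 of 18 pairs). With the replicate block, the *kitlga* difference between males and females was not called at 0 dph (-0.71, adjusted p = 0.131, 0 of 6 genes called) or at 4 dph (-0.77, adjusted p = 0.0717, 0 genes), and *tbx4* was called lower at 4 dph than at 0 dph (-0.39, adjusted p = 0.0451). With the 6 fish of 0 dph alone, 0 genes were called (adjusted p = 0.273 for *kitlga*). Between males and females, 0 genes were called without replicate number 2 at all 6 time points (log2 fold changes of *kitlga* -0.93 to -0.79). At 0 dph 0 were called without replicate number 1 or 3 as well, and at 4 dph 0 without replicate number 1. In the remaining runs without replicate number 1 or 3, 1 gene was called. Each of the 36 fish was also left out in turn, an alternative chosen after seeing the data. The genes called then numbered 1 to 2 at stage 23 against stage 20, 0 to 1 at 8 dph against 4 dph, and 0 to 1 between the sexes at 0 dph and at 4 dph. The median log2 fold change of all genes between larvae and embryos was 0.14, and 0.11 to 0.22 under other scalings and DESeq2. With 1 to 6 reads per fish, *eda* at stage 17 is limited by depth.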
